A study of Mus musculus with 22 samples.

Results

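The unfolded protein and heat shock responses were followed here through 10 genes in the kidneys of 22 mice, namely Hspa5, Ddit3, Atf4, Xbp1, Trib3, Herpud1, Hspa1a, Hspa1b, Dnajb1 and Hsp90aa1. The genes were taken by their symbols from a table of read counts for 32858 genes, and all 10 were found once and had enough reads to be tested. Poly(A) RNA of whole kidneys from male C57Bl6/J mice aged 8 to 10 weeks was sequenced, 1 library per mouse, in 4 groups. The 5 vehicle mice received the carrier of DMSO, cremophor and saline. The 6 KW6002 mice received KW6002 (istradefylline), an adenosine receptor antagonist, at 3 mg/kg i.p. each day from day -5 to day 7. The 5 cisplatin mice received the platinum drug cisplatin, which is toxic to renal tubules, at 3 mg/kg i.p. in 6 daily injections from day 0, and their kidneys were taken 72 hours after the last one. The 6 co-treated mice received cisplatin plus KW6002 on the same schedules.

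When proteins fail to fold in the endoplasmic reticulum, the membrane sensors IRE1, PERK and ATF6 switch on a program of transcription factors, chaperones and degradation factors called the unfolded protein response. PERK, with other kinases that phosphorylate eIF2alpha, favors translation of the factor ATF4, and this branch, which also answers amino acid shortage and oxidative stress, is called the integrated stress response. In the cytosol, heat shock factor 1 raises HSP70, HSP40 and HSP90 chaperones. Both responses are known in the renal tubule after toxic and ischemic injury.

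Sequence matches to motifs of these responses lay close to the start sites of 3 of the genes. Promoter windows from RefSeq (build GRCm38.p6), from 250 bases before to 50 bases after the start site, were at hand for 9 of the 10 genes, all but Hsp90aa1. They were searched on both strands for 5 motifs. The windows with a match are printed 5′ to 3′ on the strand of the gene, with the matched bases in capitals, because they show which motif each gene matched.
Hspa5, plus strand, chr2:34771840-34772139: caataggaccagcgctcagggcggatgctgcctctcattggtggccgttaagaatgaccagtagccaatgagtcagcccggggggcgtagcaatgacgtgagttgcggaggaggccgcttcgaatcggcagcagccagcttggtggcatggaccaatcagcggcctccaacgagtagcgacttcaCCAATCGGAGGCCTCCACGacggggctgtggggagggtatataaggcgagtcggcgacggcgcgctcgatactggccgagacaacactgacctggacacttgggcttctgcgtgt
Herpud1, plus strand, chr8:94386179-94386478: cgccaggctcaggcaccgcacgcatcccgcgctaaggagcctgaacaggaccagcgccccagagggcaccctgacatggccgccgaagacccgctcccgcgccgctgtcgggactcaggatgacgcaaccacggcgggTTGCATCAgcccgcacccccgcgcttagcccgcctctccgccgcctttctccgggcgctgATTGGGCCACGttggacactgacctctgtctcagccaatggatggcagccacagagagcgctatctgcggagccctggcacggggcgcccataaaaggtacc
Trib3, minus strand, chr2:152344011-152344310: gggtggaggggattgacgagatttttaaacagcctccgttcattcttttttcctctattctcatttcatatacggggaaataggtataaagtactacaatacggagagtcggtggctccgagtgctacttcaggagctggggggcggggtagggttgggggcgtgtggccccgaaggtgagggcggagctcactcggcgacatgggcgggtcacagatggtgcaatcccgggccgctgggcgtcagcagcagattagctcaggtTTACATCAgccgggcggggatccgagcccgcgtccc
The match in Hspa5, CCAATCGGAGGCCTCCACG at -65 to -47 from the start site, was to the ER stress response element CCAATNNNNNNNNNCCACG, found in 0.119% of 32851 promoter windows of the same length. In Herpud1, ATTGGGCCACG at -52 to -42 matched the second form of that element, ATTGGNCCACG, found in 0.0365% of windows. Herpud1, with TTGCATCA at -112 to -105, and Trib3, with TTACATCA at 15 to 22, both matched the ATF4 composite element TGATGNAA on the strand opposite to the gene. That motif was found in 3.97% of windows. The heat shock element GAANNTTCNNGAA (0.603% of windows) and the unfolded protein response element TGACGTGG (0.676%) had no match in these windows of the 9 genes, which says only that those letters are not there. A match is a description of the sequence and not of binding.

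The libraries held 26471762 to 40510754 counted reads (median 32721214.5). The members' counts per library ran from 24, for Trib3, to 17903. In vehicle kidneys the sum over 6 proximal tubule markers was 13354 to 14579 CPM (reads of a gene relative to the library total, scaled with TMM factors), and markers of muscle stayed at or below 0.882 CPM in sum. Both the numbering of the mice and the cell-type markers bear on the results. The mouse numbers in the labels fall into the 300s (3 vehicle and 3 KW6002 mice) and the 500s (the other 2 vehicle and 3 KW6002 mice, all 5 cisplatin mice and all 6 co-treated mice). What the numbers stand for is not stated, and the cisplatin groups hold no mouse of the 300s. Cell-type markers moved with treatment. The proximal tubule sum was 1133 to 2288 CPM with cisplatin and 5085 to 7845 CPM with both agents, and the sum of 4 fibroblast markers was 134 to 209 CPM with vehicle, 527 to 728 CPM with cisplatin and 247 to 391 CPM with both. The sum of 3 fat markers was 28.8 to 350 CPM with vehicle and 6.16 to 126 CPM with KW6002. It was 130 to 233 CPM with cisplatin and 3.14 to 84.1 CPM with both, so fat RNA was present and differed between the groups compared. In bulk tissue, fewer cells of a type and less RNA per cell cannot be told apart, and the part of cell composition in the values below was not tested.

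Per kilobase of exon, the level of the genes in vehicle kidneys spanned from Herpud1 (159 CPM per kb), a regulator of ER-associated degradation, to Trib3 (0.664 CPM per kb), a pseudokinase. Between them came, in falling order of CPM per kb, Hspa5 (103), Xbp1 (39.9), Atf4 (33.3), Hsp90aa1 (13.8), Dnajb1 (11.8), Ddit3 (6.15), Hspa1b (3.70) and Hspa1a (2.11). Of the 50-base windows of Hspa1a and Hspa1b, only 41.2% and 37.7% are absent from the other gene. As only uniquely aligned reads were counted, their levels per kb can be too low and their places in the order are uncertain. The ranges over mice overlapped between 5 neighboring pairs in this order, namely Herpud1 and Hspa5, Xbp1 and Atf4, Hsp90aa1 and Dnajb1, Ddit3 and Hspa1b, and Hspa1b and Hspa1a, and did not overlap between the other 4 pairs. Within single kidneys, Xbp1 stood above Atf4 in 4 of 5 vehicle mice, and every other pair kept its order in all 5. With cisplatin 1 pair changed places. Ddit3, at 12.5 CPM per kb, stood above Dnajb1 at 10.3 CPM per kb, and did so in each of the 5 cisplatin kidneys. The ranges of this pair over mice overlapped with cisplatin, whereas with vehicle they were apart.

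**Figure D1:**
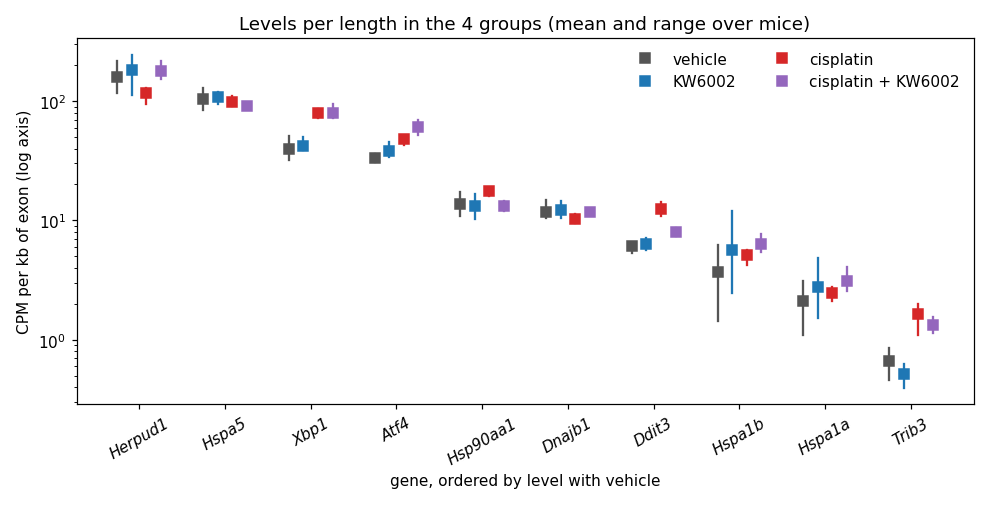
Levels of the 10 genes in CPM per kb of exon (log axis) in the 4 groups; squares are group means and lines the range over mice. The order by vehicle level runs from Herpud1 (159 CPM per kb) to Trib3 (0.664 CPM per kb), and Ddit3, Xbp1, Atf4 and Trib3 are higher in both cisplatin groups than with vehicle. The places of Hspa1b and Hspa1a are uncertain, because much of their sequence is shared and only uniquely aligned reads were counted.

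With cisplatin alone, 6 of the 10 genes differed from vehicle in edgeR's quasi-likelihood test at an adjusted p below 0.05, where 70.5% of the 17131 genes tested did. Ddit3, Atf4, Xbp1, Trib3 and Hsp90aa1 were higher (5 of 10, against 34.6% of all genes) and Herpud1 was lower (1 of 10, against 35.9%). The median log2 fold change of the 10 genes was 0.40, beside -0.01 for all genes tested. Adding KW6002 to cisplatin changed 4 of 10 relative to cisplatin, where 55.8% of all genes did. Atf4 and Herpud1 were higher (28.6% of all genes) and Ddit3 and Hsp90aa1 were lower (27.2%), and the median was 0.10, beside 0.01. Co-treated kidneys differed from vehicle in 4 of 10 genes, where 59.7% of all genes did. Ddit3, Atf4, Xbp1 and Trib3 were higher (29.8% of all genes) and none was lower (29.9%), and the median was 0.47, beside -0.00. In each of these 3 comparisons the share of members called in either direction was below that of all genes. The first and second comparisons share the cisplatin mice, and the comparisons of either cisplatin group with vehicle share the vehicle mice.

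**Figure D2:**
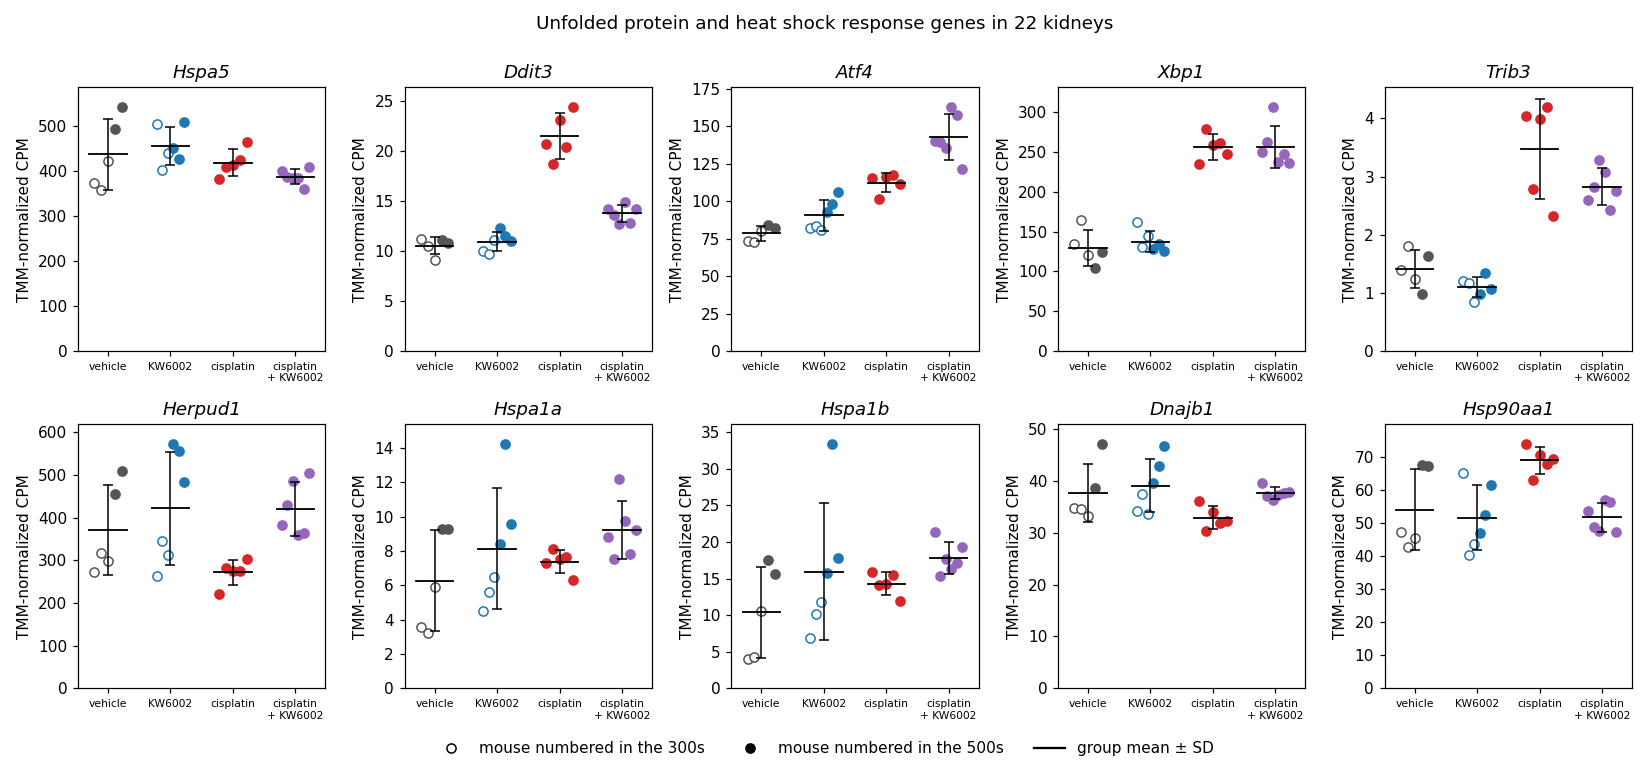
TMM-normalized CPM of each gene in each of the 22 kidneys by group, on a linear axis from 0; open points are mice numbered in the 300s, filled points mice numbered in the 500s, and black lines the group mean ± SD. Ddit3, Atf4, Xbp1 and Trib3 show no overlap between vehicle and cisplatin, whereas the open and filled control points of Herpud1, Hspa1a, Hspa1b and Dnajb1 stand apart. The share of all genes without overlap is not given here.

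Ddit3 encodes CHOP, a transcription factor that is induced by ATF4 and is linked to cell death under prolonged stress. It lies on chromosome 10 (127290774 to 127296288, plus strand, mm10), where the annotation also has a shorter gene of the same name on the same strand and Mars and Gm4189 on the other. Ddit3 stood at 11.2, 10.5, 9.11, 11.1 and 10.8 CPM in the vehicle kidneys and at 20.7, 18.7, 23.1, 20.4 and 24.4 CPM in the cisplatin kidneys. All 5 cisplatin kidneys were above all other mice of the series. The co-treated kidneys ranged from 12.7 to 14.9 CPM with a median of 13.9, between both groups and overlapping neither. In means, 10.5 ± 0.851 CPM (SD, n = 5) with vehicle became 21.5 ± 2.28 CPM (n = 5) with cisplatin and 13.8 ± 0.863 CPM (n = 6) with both agents. Ddit3 thus rose 2.04-fold with cisplatin (log2 fold change 1.03, SE 0.08, edgeR adjusted p = 1.06e-10) and fell by 0.64 on the log2 scale when KW6002 was added (SE 0.07, adjusted p = 2.15e-07). It remained 1.31-fold above vehicle with both agents (log2 fold change 0.38, SE 0.08, adjusted p = 2.03e-04).

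Atf4, whose factor activates amino acid synthesis, redox genes and Ddit3, is a short gene on chromosome 15 (80255184 to 80257541, plus strand). Its output is set largely by translation, so its mRNA level is not a measure of the protein. Atf4 stood at 73.6, 72.6, 79.9, 84.4 and 81.9 CPM with vehicle and at 116, 101.6, 116, 117 and 112 CPM with cisplatin. The co-treated kidneys ranged from 122 to 163 CPM with a median of 140. The 3 groups did not overlap and were ordered vehicle, cisplatin, both agents. Atf4 rose 1.43-fold with cisplatin (log2 fold change 0.52, SE 0.08, edgeR adjusted p = 4.83e-06) and a further 1.27-fold when KW6002 was added (0.35, SE 0.08, adjusted p = 5.60e-04), so that it was 1.82-fold above vehicle with both agents (0.87, SE 0.08, adjusted p = 3.28e-09). Relative to cisplatin alone, KW6002 therefore went with less Ddit3 mRNA and more Atf4 mRNA in the same kidneys.

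Xbp1, on chromosome 11 (5520659 to 5525893, plus strand), encodes the factor whose mRNA IRE1 splices into its active form. Counts per gene hold both forms together, and splicing was not measured. Xbp1 stood at 135, 165, 121, 104 and 124 CPM with vehicle and at 234, 279, 259, 261 and 247 CPM with cisplatin, and ranged from 236 to 307 CPM with a median of 248.7 with both agents. Every kidney that had received cisplatin was above every kidney that had not. Xbp1 rose 1.98-fold with cisplatin (log2 fold change 0.98, SE 0.10, edgeR adjusted p = 5.35e-09). The means of 256 ± 16.7 CPM with cisplatin (n = 5) and 257 ± 26.4 CPM with both agents (n = 6) did not differ in the test (log2 fold change 0.00, adjusted p = 0.986), with a 95% interval of the difference from -0.19 to 0.19 on the log2 scale.

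Trib3, a pseudokinase gene that ATF4 and CHOP induce and that damps their activity, lies on chromosome 2 (152337422 to 152344032, minus strand) and was the lowest of the 10. It stood at 1.39, 1.80, 1.24, 0.986 and 1.63 CPM with vehicle and at 4.05, 2.79, 3.997, 4.20 and 2.32 CPM with cisplatin. The cisplatin kidneys were all higher but fell apart into 3 near 4 CPM and 2 lower ones. The co-treated kidneys ranged from 2.42 to 3.29 CPM with a median of 2.79, above all vehicle mice and within the cisplatin range. Trib3 rose 2.46-fold with cisplatin (log2 fold change 1.30, SE 0.18, edgeR adjusted p = 8.77e-07) and was 2.00-fold above vehicle with both agents (1.00, SE 0.17, adjusted p = 3.56e-05). The difference between both cisplatin groups, -0.30 (SE 0.16, adjusted p = 0.119, 95% interval -0.63 to 0.03), passed the threshold only without the lowest cisplatin kidney, replicate 5 (-0.41, adjusted p = 0.0267).

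Herpud1, on chromosome 8 (94386438 to 94395377, plus strand, with Gm15890 on the other strand), encodes a membrane protein of ER-associated degradation and is the gene with matches to both motif types printed above. It stood at 272, 318, 297, 456 and 509 CPM with vehicle and at 222, 283, 275, 275 and 303 CPM with cisplatin, and ranged from 358 to 504 CPM with a median of 405 with both agents. The vehicle kidneys overlapped both other groups, with 1 cisplatin kidney below all of them, whereas every co-treated kidney was above every cisplatin kidney. Herpud1 rose 1.55-fold when KW6002 was added to cisplatin (log2 fold change 0.63, SE 0.19, edgeR adjusted p = 0.00689). Its decrease with cisplatin alone, by 0.45 on the log2 scale (SE 0.20, adjusted p = 0.0450), was close to the threshold and was no longer called with library-size scaling (-0.23, adjusted p = 0.275) or after removal of vehicle replicate 4 (-0.36, adjusted p = 0.119) or 5 (-0.31, adjusted p = 0.165), cisplatin replicate 1 (-0.38, adjusted p = 0.107), 2 (-0.46, adjusted p = 0.0596), 3 (-0.45, adjusted p = 0.0661) or 4 (-0.45, adjusted p = 0.0657), or co-treated replicate 2 (-0.45, adjusted p = 0.0507). Among mice numbered in the 500s alone it was larger (-0.84, adjusted p = 2.42e-05).

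Hspa5, on chromosome 2 (34771970 to 34777547, plus strand), encodes BiP, the main HSP70 chaperone of the endoplasmic reticulum and a classical target of ATF6. It stood at 372, 357, 421, 492 and 541 CPM with vehicle, at 382, 407, 412, 424 and 464 CPM with cisplatin, and from 360 to 408 CPM with a median of 384 with both agents. The groups overlapped throughout. No difference passed the test (with cisplatin -0.06, adjusted p = 0.548, 95% interval -0.25 to 0.13). Among mice numbered in the 500s alone, Hspa5 was lower than vehicle with cisplatin (-0.31, edgeR adjusted p = 0.00287) and with both agents (-0.42, adjusted p = 3.01e-04); the 2 vehicle mice of that series were at 492 and 541 CPM.

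**Figure D3:**
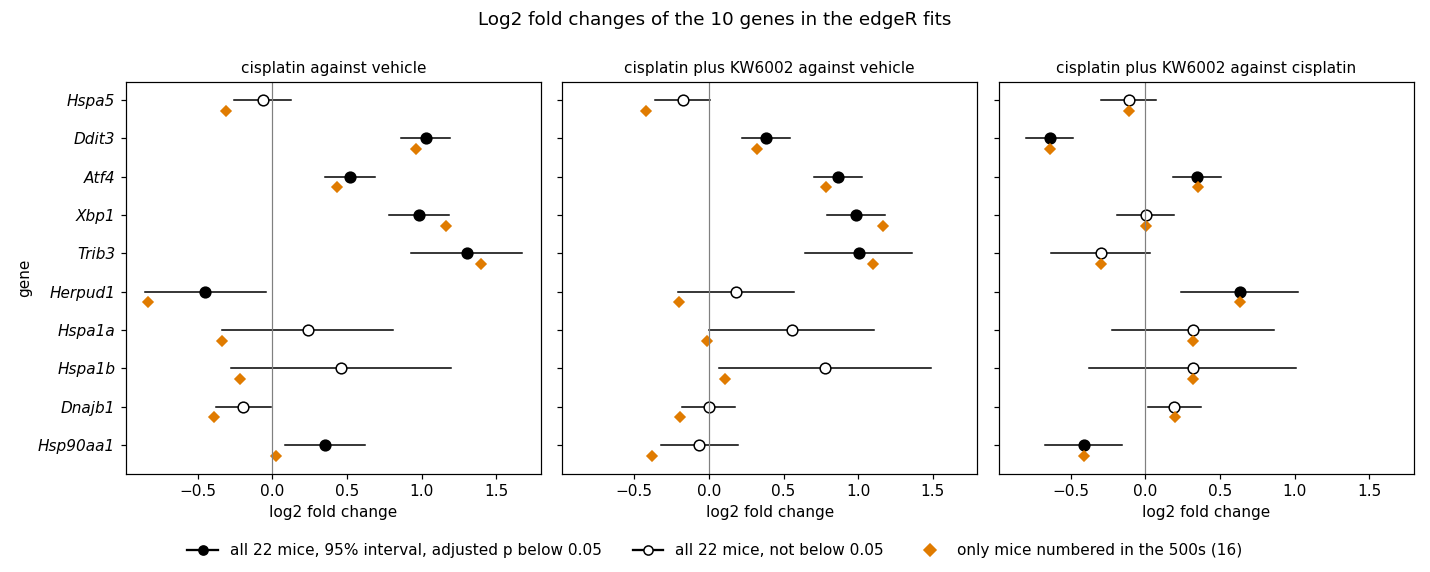
Log2 fold changes of the 10 genes in 3 comparisons; circles with lines are edgeR estimates over 22 mice with 95% intervals, filled where the adjusted p was below 0.05, and diamonds are estimates from the 16 mice numbered in the 500s. Ddit3, Atf4, Xbp1 and Trib3 stay to the right of 0 against vehicle by either estimate, whereas Hspa1a and Hspa1b with cisplatin change side.

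Hspa1a and Hspa1b encode the inducible cytosolic HSP70 and are the classical targets of heat shock factor 1. They are near copies on chromosome 17 (34969190 to 34972156 and 34956436 to 34959238, minus strand). Only 41.2% and 37.7% of the 50-base windows of their transcripts are absent from the other, and as only uniquely aligned 50-base reads were kept, their levels and the split between them are uncertain. Hspa1a stood at 3.59, 3.25, 5.88, 9.26 and 9.31 CPM with vehicle, at 7.27, 8.14, 7.54, 7.65 and 6.31 CPM with cisplatin, and from 7.53 to 12.2 CPM (median 9.01) with both agents. Hspa1b stood at 4.02, 4.25, 10.5, 17.6 and 15.6 CPM with vehicle, at 15.9, 14.1, 14.3, 15.5 and 11.9 CPM with cisplatin, and from 15.3 to 21.4 CPM (median 17.4) with both agents. For both genes the cisplatin kidneys lay within the wide vehicle range, and the highest co-treated kidneys lay above it. No comparison passed for either gene in the fit over all 22 kidneys (with cisplatin 0.24, SE 0.28, edgeR adjusted p = 0.460 for Hspa1a, and 0.46, SE 0.36, adjusted p = 0.254 for Hspa1b). Their sum did not pass either (0.38, adjusted p = 0.299). With both agents against vehicle, the values were 0.55 (adjusted p = 0.0786) and 0.78 (adjusted p = 0.0555). They passed under library-size scaling (0.71, adjusted p = 0.0214, and 0.94, adjusted p = 0.0196) and without vehicle replicate 4, vehicle replicate 5 or KW6002 replicate 5. Among the 500s alone they were -0.01 (adjusted p = 0.959) and 0.11 (adjusted p = 0.694). With KW6002 added to cisplatin, the value was 0.32 for each gene over all mice (edgeR adjusted p = 0.312 and 0.435). Fits with only the groups compared called both genes there. Hspa1b held 52.8% to 70.9% of the reads of both genes over the 22 kidneys.

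Dnajb1, the HSP40 co-chaperone that works with cytosolic HSP70, lies on chromosome 8 (83608193 to 83612653, plus strand). It stood at 34.8, 34.5, 33.3, 38.6 and 47.1 CPM with vehicle, at 36.1, 30.3, 33.9, 31.8 and 32.2 CPM with cisplatin, and from 36.3 to 39.7 CPM (median 37.4) with both agents. All co-treated kidneys were above all cisplatin kidneys, by little. Neither the difference from cisplatin (log2 fold change 0.19, SE 0.08, edgeR adjusted p = 0.0562) nor that of cisplatin from vehicle (-0.20, SE 0.09, adjusted p = 0.0524) passed the threshold over all 22 mice. Fits with only the groups compared called the first (0.19, adjusted p = 0.00452), and fits with only the 500s called both (0.20, adjusted p = 0.00836, and -0.39, adjusted p = 4.10e-04). When each mouse was left out in turn, the first passed in 6 of 22 fits and the second in 7, and the second ran from -0.24 to -0.10, the smallest size without vehicle replicate 5.

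Hsp90aa1, the inducible cytosolic HSP90, lies on chromosome 12 (110690605 to 110702728, minus strand). It stood at 47.5, 42.8, 45.4, 67.8 and 67.4 CPM with vehicle and at 74.1, 63.1, 70.7, 67.9 and 69.4 CPM with cisplatin, and ranged from 47.3 to 57.0 CPM with a median of 51.2 with both agents. The 2 vehicle kidneys near 67 CPM, both of mice numbered in the 500s, lay within the cisplatin range, while the co-treated kidneys were all below the cisplatin kidneys. Hsp90aa1 fell by 0.41 on the log2 scale when KW6002 was added to cisplatin (SE 0.12, edgeR adjusted p = 0.00686). Its rise with cisplatin (0.35, SE 0.13, adjusted p = 0.0201) was no longer called among the 500s alone (0.03, adjusted p = 0.824), with the number series as a covariate (0.18, adjusted p = 0.208), or without vehicle replicate 1 (0.30, adjusted p = 0.0552), 2 (0.27, adjusted p = 0.0670) or 3 (0.29, adjusted p = 0.0623). With both agents it was not distinguishable from vehicle over all mice (-0.06, adjusted p = 0.679) and was lower among the 500s alone (-0.38, adjusted p = 0.00219).

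KW6002 alone changed none of the 10 genes, where 0.0175% of all genes tested, 3 genes, were called, all of them higher (0.0175%, and 0% lower). DESeq2 called none of the 10 either, and 1 of them had an unadjusted p below 0.05, Atf4 (log2 fold change 0.21, SE 0.08, edgeR adjusted p = 0.326). The KW6002 kidneys ranged from 9.72 to 12.3 CPM for Ddit3 (median 11.1), from 80.5 to 106 CPM for Atf4 (median 88.3), from 126 to 162 CPM for Xbp1 (median 133) and from 0.843 to 1.34 CPM for Trib3 (median 1.12). Each range overlapped the vehicle range. For the chaperones and Herpud1 the KW6002 kidneys ranged from 402 to 507 CPM for Hspa5, from 263 to 573 CPM for Herpud1, from 4.52 to 14.2 CPM for Hspa1a, from 6.90 to 33.4 CPM for Hspa1b, from 33.7 to 46.8 CPM for Dnajb1 and from 40.5 to 65.3 CPM for Hsp90aa1, again overlapping vehicle. The difference between the KW6002 effect with and without cisplatin was tested directly. It passed for 1 of 10 genes, Ddit3 (-0.69, SE 0.11, edgeR adjusted p = 2.44e-05), where it passed for 42.7% of all genes (22.8% with a difference above 0 and 19.9% below 0). Atf4, Herpud1 and Hsp90aa1 also passed with KW6002 added to cisplatin and did not pass with KW6002 alone. For them the difference was 0.14 (edgeR adjusted p = 0.316), 0.44 (adjusted p = 0.184) and -0.35 (adjusted p = 0.117). A different effect with and without cisplatin was thus not shown for these genes over all mice. With the number series as a covariate the Herpud1 difference passed (0.53, adjusted p = 0.00295).

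The number series was compared among the 11 control mice, in a test chosen after the values were seen (edgeR with group and series as terms). Between mice of the 500s and the 300s, 5 of 10 genes passed, all of them higher in the 500s, where 10.4% of the 16991 genes tested passed (5.56% higher and 4.86% lower). Herpud1 ranged from 263 to 344.8 CPM in the 6 mice of the 300s and from 456 to 573 CPM in the 5 of the 500s (log2 difference 0.76, SE 0.07, edgeR adjusted p = 2.49e-04). Hspa1a ranged from 3.25 to 6.50 and from 8.42 to 14.2 CPM (1.03, adjusted p = 0.00416), Hspa1b from 4.02 to 11.8 and from 15.6 to 33.4 CPM (1.30, adjusted p = 0.0106), and Dnajb1 from 33.3 to 37.5 and from 38.6 to 47.1 CPM (0.31, adjusted p = 0.00839). Neither series overlapped the other for these 4 genes, and the share of all genes with such separate ranges is not given here. For Atf4 the ranges of 72.6 to 83.7 CPM and 81.9 to 106 CPM overlapped (0.22, adjusted p = 0.0117). Ddit3 (0.15, adjusted p = 0.207), Xbp1 (-0.22, adjusted p = 0.114), Trib3 (-0.04, adjusted p = 0.920), Hspa5 (0.22, adjusted p = 0.135) and Hsp90aa1 (0.32, adjusted p = 0.134) did not pass. Among the 500s alone, with 2 vehicle mice, the rise with cisplatin was still called for Ddit3 (0.96, adjusted p = 2.90e-07), Atf4 (0.43, adjusted p = 7.82e-04), Xbp1 (1.16, adjusted p = 2.91e-08) and Trib3 (1.40, adjusted p = 1.51e-04).

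Beyond the 10 genes, 7 lists of other pathway genes were read, chosen with earlier results of these data known. Their counts therefore describe the data and are not independent support, and which factor moved the genes was not tested. In these lists 90 genes were tested. With cisplatin 29 were higher (32.2%, beside 34.6% of all genes tested) and 40 lower than vehicle (44.4%, beside 35.9%). With KW6002 added 31 were higher (34.4%, beside 28.6%) and 24 lower than with cisplatin (26.7%, beside 27.2%), and with KW6002 alone none passed. Some list genes also differed by number series among control mice. Higher in the 500s (5.56% of all genes) were 5 of 18 cytosolic chaperones and 3 of 21 ATF4 and CHOP targets. So were 3 of 13 genes of ER-associated degradation and 1 of 17 ER chaperones. Of the ATF4 and CHOP targets 1 was lower (4.86%), and no gene of the other lists passed. The 21 target genes of ATF4 and CHOP had the largest median, 1.32, with cisplatin, beside -0.01 for all genes. Of these, 15 were higher (71.4%, beside 34.6% of all genes) and 3 lower (14.3%, beside 35.9%). Gdf15, a stress cytokine, went from a mean of 6.10 CPM with vehicle to 313 CPM with cisplatin (log2 fold change 5.68) and 142 CPM with both agents, and Ddit4, an inhibitor of mTORC1, from 30.7 to 255 CPM (3.05). The mitochondrial serine hydroxymethyltransferase gene Shmt2 (-1.19) and the lipoprotein receptor gene Vldlr (-0.42) fell. Adding KW6002 split the list, with 7 genes higher and 9 lower than with cisplatin (33.3% and 42.9%, beside 28.6% and 27.2% of all genes). Asparagine synthetase, Asns, rose from 8.09 to 19.8 CPM (1.29) and Shmt2 rose by 0.72, while Nupr1, a stress-induced chromatin factor, fell from 40.1 to 16.6 CPM (-1.27) and Gdf15 fell by 1.14. With both agents 17 of the 21 were higher than vehicle and 2 lower, where 29.8% and 29.9% of all genes were. Of the 15 genes that rose with cisplatin, 14 were among the 17. Both counts share the vehicle mice, so some overlap is built in. The same share over all genes is not given here, so persistence particular to this list is not shown.

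**Figure D4:**
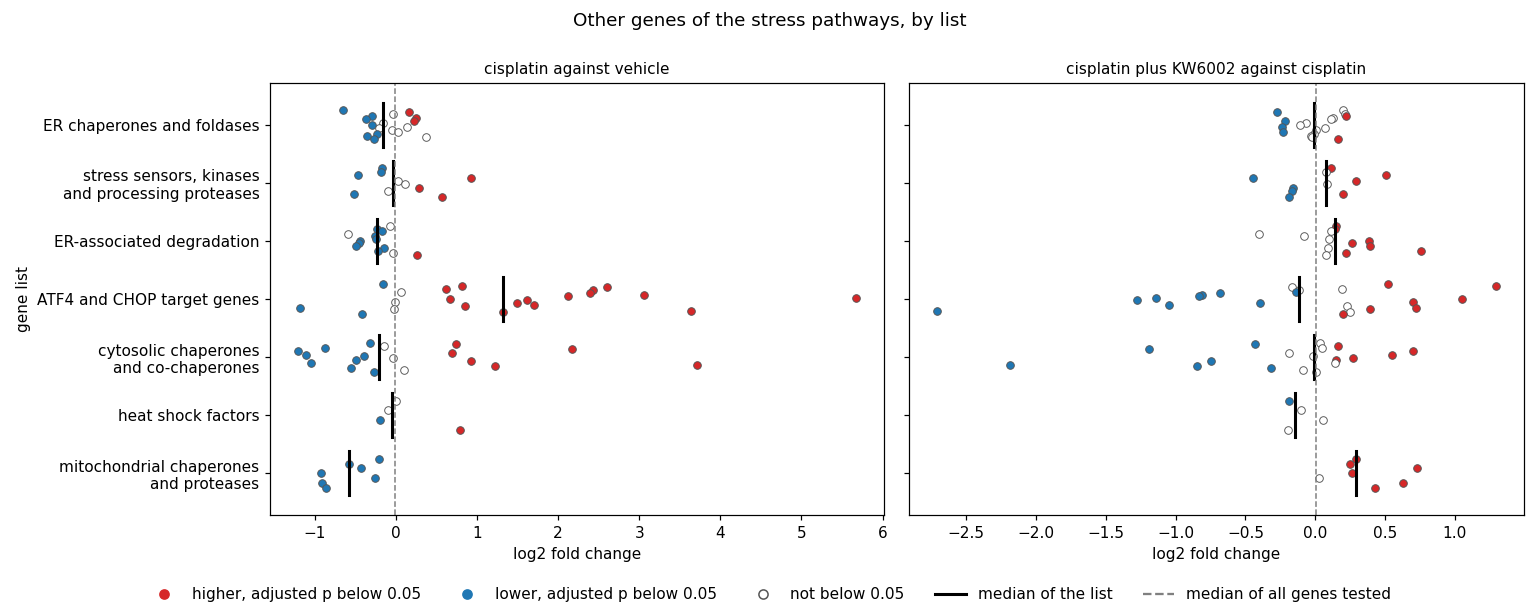
Log2 fold changes of the other pathway genes in 7 lists, with cisplatin against vehicle (left) and with KW6002 added against cisplatin (right); each point is a gene, colored where the adjusted p was below 0.05, thick bars are list medians and the dashed line the median of all genes tested. The ATF4 and CHOP targets have a median of 1.32 on the left, and all 7 mitochondrial genes lie below 0 on the left and above 0 on the right.

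The lists of the endoplasmic reticulum gave smaller values. Of 17 ER chaperones and foldases, 3 were higher and 7 lower with cisplatin (17.6% and 41.2%, beside 34.6% and 35.9% of all genes), with a median of -0.16. The lectin chaperone gene Canx (0.16) and the BiP co-chaperone gene Dnajb9 (0.25) rose, and Calr (-0.65), the soluble lectin chaperone, and Dnajc3 (-0.37), an inhibitor of eIF2alpha kinases, fell. This split depended on scaling. With library size alone, which moves the median of all genes to 0.20, 7 were higher and 2 lower (47.6% and 24.8% of all genes). Without vehicle replicate 5 there were 5 higher (33.1% to 34.7% of all genes over the fits without 1 mouse), and with the number series as a covariate 1 (33.6%). Among the 500s alone 0 were higher (31.4% of all genes), with Dnajb9 at 0.23 (edgeR adjusted p = 0.0551) and Canx at 0.12 (adjusted p = 0.0964). With KW6002 added 2 were higher and 4 lower (11.8% and 23.5%, beside 28.6% and 27.2% of all genes). The count of 2 was 0 with library-size scaling (23.9% of all genes higher). It was 1 without cisplatin replicate 1, 5 without cisplatin replicate 5 and 4 without co-treated replicate 5. Over the fits without 1 mouse, 26.4% to 28.6% of all genes were higher. Among the lower genes were Canx (-0.27) and Hyou1 (-0.24), an ER chaperone of the HSP110 family. Of 13 genes of ER-associated degradation, the process Herpud1 serves, 9 were lower and 1 higher with cisplatin (69.2% and 7.69%, beside 35.9% and 34.6% of all genes; median -0.23). When KW6002 was added 7 were higher and none lower (53.8% and 0%, beside 28.6% and 27.2%; median 0.14). Os9 (-0.50) and Erlec1 (-0.46), lectins that pick misfolded glycoproteins, fell with cisplatin, and the ubiquitin-conjugating enzyme gene Ube2j1 (0.26) rose. Selenos (0.76), a selenoprotein of the degradation channel, and the mannosidase gene Edem3 (0.39) rose with KW6002 added. With library-size scaling the counts with cisplatin became 3 higher and 3 lower, where 47.6% and 24.8% of all genes were.

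The list of 10 stress sensors, eIF2alpha kinases and processing proteases also counts Eif2s1, the gene of eIF2alpha itself. Of these 10, 3 were higher and 4 lower with cisplatin, with a median of -0.04 (30.0% and 40.0%, near the 34.6% and 35.9% of all genes). When KW6002 was added 4 were higher and 4 lower (40.0% each, beside 28.6% and 27.2%), with a median of 0.08. Without cisplatin replicate 1 there were 2 lower (25% to 27.5% of all genes over the fits without 1 mouse). Eif2ak2, the double-stranded RNA-activated eIF2alpha kinase PKR, rose with cisplatin (0.93) and fell with KW6002 added (-0.44), and the kinase gene Eif2ak1, whose product senses heme and mitochondrial stress, did the opposite (-0.46, then 0.51). The PERK gene Eif2ak3 rose by 0.29 and the eIF2alpha gene Eif2s1 fell by 0.16 when KW6002 was added. The proteases that cleave ATF6 parted with cisplatin, Mbtps2 rising by 0.57 and Mbtps1 falling by 0.52. With library-size scaling the list had 5 higher and 2 lower with cisplatin (47.6% and 24.8% of all genes).

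Among 18 tested genes of 19 cytosolic chaperones and co-chaperones, 6 were higher and 9 lower with cisplatin (beside 34.6% and 35.9% of all genes; median -0.21). The 3 small heat shock proteins of the list were among those that rose. Cryab went from 75.7 to 340 CPM (log2 fold change 2.17) and Hspb8 from 6.78 to 15.7 CPM (1.22), and Hspb1, named after its values were seen because it had the largest change of the list and an average level under the limit for naming, from 1.15 to 15.2 CPM (3.71). All of them fell when KW6002 was added, Cryab to 149 CPM (-1.19), Hspb8 to 8.76 CPM (-0.85) and Hspb1 to 3.34 CPM (-2.19). Among control mice Hspb1 was also higher in the 500s than in the 300s (0.58, edgeR adjusted p = 0.0468), while Cryab and Hspb8 did not pass. The HSP40 gene Dnaja1 (-1.21, then 0.70) and Fkbp4 (-1.11, then 0.55), a co-chaperone of HSP90, fell with cisplatin and rose with KW6002 added. In total 5 of these genes were higher and 6 lower when KW6002 was added (27.8% and 33.3%, beside 28.6% and 27.2% of all genes; median -0.01). The count of 5 was 3 in DESeq2, with library-size or relative log expression factors, with either other filter, and without cisplatin replicate 1, 2 or 4 or co-treated replicate 2, 4 or 6. In these settings 14.6% to 30.3% of all genes were higher. Of 4 heat shock factor genes, 1 was higher and 1, Hsf2, lower with cisplatin (25% each, beside 34.6% and 35.9% of all genes). Hsf2 had a log2 fold change of -0.20, but of 0.015 and not called with library-size scaling. With both agents 1 of the 4 was higher and 3 were lower than vehicle (25% and 75%, beside 29.8% and 29.9%). All 7 mitochondrial chaperones and proteases were lower with cisplatin, where 35.9% of all genes were (median -0.57), for example Hspd1 (-0.92), the mitochondrial HSP60, and the protease gene Lonp1 (-0.92). When KW6002 was added 6 of the 7 were higher, where 28.6% of all genes were (median 0.29), among them Hspa9, the mitochondrial HSP70, from 644 to 1065 CPM (0.73), and Lonp1 (0.63).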

How the data were processed

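Poly(A) RNA of 22 mouse kidneys was sequenced as single-end 50-base reads with a stranded kit. Per the study's methods, the authors aligned reads to mm10 with STAR, kept uniquely aligned reads and made the deposited raw counts per gene with HTSeq 0.6.1p1 in union mode; whether counting used strand is not given in the sources used here. Groups were taken from the sample titles. Of the table, 66 unnamed columns held no value and were not used. Genes with at least 10 counts (CPM 0.306 at the median library) in 5 libraries were kept, and 17131 of 32858 genes with 99.9% of counts were tested with edgeR 4.0.16 (R 4.3.3; TMM, 1 mean per group, quasi-likelihood F test, Benjamini-Hochberg over all genes tested, threshold 0.05). The biological coefficient of variation was 0.129. Levels are CPM with TMM factors, with SD over mice, and CPM per kb uses exon length from GENCODE M21. The test was also run on simulated data, whose outcome is not given here and is not used as support. Alternatives were DESeq2 1.42.0, other scalings and filters, only the groups compared, the number series, the threshold of the study (adjusted p below 0.01 and log2 fold change beyond 1), a replicate block and leaving out each mouse. All 10 members were named, and from each pathway list up to 2 genes per direction with adjusted p below 0.05, an average log2 CPM not under 3 and groups that did not overlap. Members and lists were chosen with earlier results of these data known.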

Additional observations from a re-analysis of the deposited data

Results flagged for a closer look

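Ddit3 had a KW6002 effect that differed with and without cisplatin. KW6002 against vehicle gave a log2 fold change of 0.05 and KW6002 added to cisplatin one of -0.64, and the test of the difference itself gave -0.69 (SE 0.11, edgeR adjusted p = 2.44e-05). The difference lay between -0.74 and -0.64 when each mouse in turn was left out, and was -0.72 (adjusted p = 5.22e-04) among mice numbered in the 500s. Among 40 groups of libraries, 10 genes in 4 groups, no single kidney stood far from the rest of its group by Dixon's criterion, which chance alone would meet in about 1 of 20 groups.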

How the results depend on the processing

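The calls for Ddit3, Atf4, Xbp1 and Trib3 against vehicle held in both cisplatin groups under every setting at the 0.05 threshold. So did those for Ddit3, Atf4, Herpud1 and Hsp90aa1 with KW6002 added to cisplatin. Over the log2 fold changes of the 10 members, 1443 of 1550 values from alternatives kept their direction and their side of the threshold, 45 came to pass it, 13 no longer passed and 49 changed sign; the cause was not tested. At the threshold of the study 2 members were called with cisplatin (24.1% of all genes tested) and 0 with KW6002 added (10.3%). With both agents against vehicle 1 was called (13.4%), and for the difference between KW6002 effects 0 (8.58%). Fits with only the groups compared called 7 members rather than 4 with KW6002 added (59% of all genes). They added Hspa1a (0.32, adjusted p = 0.0322), Hspa1b (0.32, adjusted p = 0.0110) and Dnajb1, as given above. With the number series as a covariate, and among the 500s alone, 2 members were called rather than 1 for the difference between KW6002 effects (45.9% and 34.1% of all genes). With library-size scaling 5 members were higher and 0 lower with cisplatin (47.6% and 24.8% of all genes).

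Values that changed sign were not called in the fits over 22 mice except Hsf2. With library-size scaling they were, with cisplatin against vehicle, Hspa5 (0.15), Dnajb1 (0.023) and Hsf2 (0.015), with KW6002 added against cisplatin, Xbp1 (-0.056), with both agents against vehicle, Dnajb1 (0.16) and Hsp90aa1 (0.10), and for the difference between KW6002 effects, Trib3 (-0.027). Xbp1 with KW6002 added against cisplatin was -0.0076 with relative log expression factors, -0.012 with at least 10 counts in every library and -0.0071 in DESeq2. Dnajb1 with both agents against vehicle was 0.0065 with no filter. With the series as a covariate Hspa1a (-0.28) and Hspa1b (-0.15) with cisplatin, Herpud1 with both agents against vehicle (-0.23) and the difference between KW6002 effects for Hspa1a (0.021) changed sign. Among the 500s alone Hspa1a (-0.33) and Hspa1b (-0.21) with cisplatin, Herpud1 (-0.20) and Hspa1a (-0.013) with both agents against vehicle, Hspa5 with KW6002 against vehicle (-0.17), and the difference between KW6002 effects for Hspa5 (0.058), Trib3 (-0.082) and Hspa1a (0.11) did so.

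With each mouse left out in turn, 5 to 7 members were called with cisplatin (67.7% to 70.7% of all genes). With KW6002 added 4 to 5 were called (51.4% to 56.1%), and with both agents against vehicle 4 to 6 (56.5% to 59.9%). The difference between KW6002 effects passed for 1 to 2 (39.1% to 43.2%). Hsp90aa1 passed there without vehicle replicate 4 (-0.44, adjusted p = 0.0454) or 5 (-0.44, adjusted p = 0.0474). With both agents against vehicle, Hspa1a and Hspa1b passed without vehicle replicate 4 (0.74, adjusted p = 0.0288, and 1.05, adjusted p = 0.0160), vehicle replicate 5 (0.74, adjusted p = 0.0272, and 0.97, adjusted p = 0.0286) or KW6002 replicate 5 (0.55, adjusted p = 0.0484, and 0.78, adjusted p = 0.0269), and Hspa1b without KW6002 replicate 1 (0.78, adjusted p = 0.0399). Hspa5 passed there without vehicle replicate 1 (-0.23, adjusted p = 0.0335) or 2 (-0.24, adjusted p = 0.0204). Ranges that crossed 0 were, with cisplatin against vehicle, Hspa5 (-0.13 to 0.024); with KW6002 added against cisplatin, Xbp1 (-0.055 to 0.035); with both agents against vehicle, Dnajb1 (-0.044 to 0.092) and Hsp90aa1 (-0.14 to 0.030); with KW6002 against vehicle, Hspa5 (-0.0071 to 0.15), Dnajb1 (-0.0045 to 0.15) and Hsp90aa1 (-0.15 to 0.027); and for the difference between KW6002 effects, Trib3 (-0.064 to 0.15), Hspa1a (-0.24 to 0.19) and Hspa1b (-0.56 to 0.065).

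Replicate numbers did not pair the mice. Of 31 same-numbered pairs, 7 had a correlation of deviations above 0.1 (median 0.0085, beside -0.0014 for other numbers). With the replicate block 7, 4, 6, 0 and 1 members were called in the 5 comparisons, beside 6, 4, 4, 0 and 1 without it (70.6%, 54.8%, 59.1%, 0.00584% and 42.6% of all genes with the block). Standard errors were largest for Hspa1b, Hspa1a and Herpud1.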
